A study of Mus musculus with 32 samples.

Results

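The lung of newborn mice kept in hyperoxia (raised oxygen) was compared between P14.5 and P2.5 (P, postnatal day), the span over which alveoli fail to form in this model of bronchopulmonary dysplasia, a lung disease of preterm infants. The comparison held 8 of the 32 samples, the 4 labelled hyperoxia P14.5 (arrays 29 to 32) and the 4 labelled hyperoxia P2.5 (arrays 5 to 8), chosen by their labels of treatment and age, with 1 pup per array. The other samples were hyperoxia at P3.5 and P5.5 and normoxia (room air) at all 4 ages. Total RNA of whole lung from pups randomised at birth, with balanced litters and 4 cages in each atmosphere, was hybridised to a mouse microRNA (miRNA) array with 1 to 4 probes for each of 1079 miRNAs. The labels give no strain or genotype, and the study's methods name wild-type C57Bl/6J mice. Lungs had been flushed with saline until white, and pups were killed with pentobarbital up to P5.5 and with isoflurane at P14.5, so that agent and age cannot be told apart. A higher or lower level in whole lung does not separate the number of cells of a type from the amount of a miRNA per cell.

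A miRNA is a short RNA that guides a silencing complex to messenger RNAs, which it recognises mainly through its seed, bases 2 to 8 from the 5′ end. miRNAs with the same seed are grouped as a family and can recognise overlapping targets. The miR-34 family is induced by p53 and slows the cell cycle, miR-449a shares its seed and is abundant in multiciliated airway cells, and the miR-15/16 family, to which miR-322 and miR-503 are closely related, also restrains proliferation. miR-21 rises in injured and fibrotic lung. The imprinted Dlk1-Dio3 region encodes a large set of miRNAs that are abundant in the fetus, and the miR-17 to 92 clusters support growth of the embryonic lung.

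The miRNAs that carried the main results are shown first, with the seed in capitals, from RefSeq on the mouse build GRCm38.p6. Of the 303 miRNAs tested here, 243 matched 1 RefSeq mature sequence that also contained the bases its probes pair with. The first set has the miR-34 seed and includes 1 miRNA that rose and 1 that fell.
miR-34a-5p (chr4:150068473-150068494, plus strand): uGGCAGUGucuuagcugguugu
miR-449a-5p (chr13:113037549-113037570, plus strand): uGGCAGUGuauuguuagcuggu
miR-34b-5p (chr9:51103610-51103632, minus strand): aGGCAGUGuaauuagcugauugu
The second set has the miR-15/16 seed or, in miR-503-5p, a seed that ends in G in place of A, and includes the miRNAs of the X-chromosome cluster that fell most.
miR-322-5p (chrX:53054306-53054327, minus strand): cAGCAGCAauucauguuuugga
miR-503-5p (chrX:53054027-53054049, minus strand): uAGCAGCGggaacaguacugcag
miR-497-5p (chr11:70234730-70234751, plus strand): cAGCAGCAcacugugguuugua
miR-195-5p (chr11:70235062-70235082, plus strand): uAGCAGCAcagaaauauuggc
The third set holds single miRNAs on which the comparison with normoxia turned, with 2 members of the Dlk1-Dio3 region and the miRNA with the largest rise.
miR-21-5p (RefSeq miR-21a-5p, chr11:86584120-86584141, minus strand): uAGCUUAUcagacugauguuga
miR-146a-5p (chr11:43374435-43374456, minus strand): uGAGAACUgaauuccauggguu
miR-100-5p (chr9:41531437-41531458, plus strand): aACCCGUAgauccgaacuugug
miR-551b-3p (chr3:29416879-29416899, plus strand): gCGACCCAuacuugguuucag
miR-136-5p (chr12:109595331-109595352, plus strand): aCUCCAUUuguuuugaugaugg
miR-127-3p (chr12:109592888-109592909, plus strand): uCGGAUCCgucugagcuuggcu
miR-5128 (chr2:37688212-37688234, minus strand): cAAUUGGGgcuggcgagauggcu

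All levels are log2 of the scaled fluorescence signal, so that 1 unit is a doubling, and levels of different miRNAs were not compared. Arrays 29 and 31 stood apart: their labelling spike-in, a synthetic RNA added before labelling, fell outside the range that the extraction software accepts (log10 signal 2.46 and 2.13), against 2.61 to 3.09 on the other 6. Their 75th percentile signals were 301 and 198 intensity units, against 752 to 1279 on the other 6, and fewer miRNAs were detected on them (165 on array 31), against 282 to 331. The median SD over miRNAs was 0.64 in the P14.5 group and 0.13 in the P2.5 group, and the lowest correlation between 2 replicates, across miRNAs and not independent, was 0.656 and 0.984. No slide or scan day held both groups, so slide, scan day and age cannot be told apart. Arrays 29 and 31 shared a slide that held no normoxia P14.5 array. In the comparison with normoxia, slide and exposure therefore cannot be fully told apart either. The signals also moved with base composition on array 31. Among the 62 miRNAs whose longest probe was at least 60% G and C, the median difference from the P2.5 mean was 1.96 on array 31 and 0.06, 0.12 and 0.06 on arrays 29, 30 and 32. Among the 49 miRNAs under 40% it was -2.40 on array 31 and -1.04, -1.33 and -0.74 on arrays 29, 30 and 32. The part of labelling in the results was not tested, and most list counts are also given without arrays 29 and 31, which leaves 2 arrays at P14.5, with the values of the named miRNAs whose call changed. Among the normoxia P14.5 arrays, array 28 was outside the same range (2.42).

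**Figure D1:**
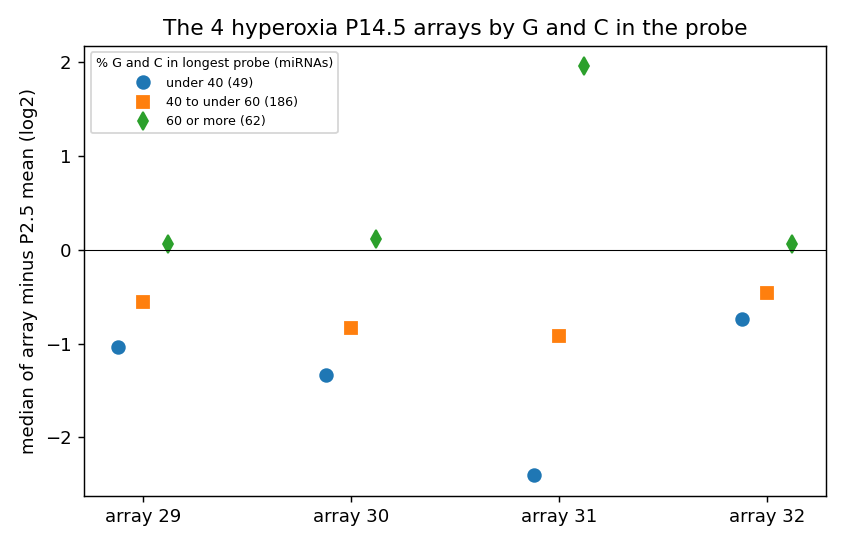
Median difference (log2) of each hyperoxia P14.5 array from the hyperoxia P2.5 mean, by the percent of G and C in a miRNA's longest probe, with the number of miRNAs in the legend. Array 31 spread from -2.40 for the lowest class to 1.96 for the highest, and arrays 29, 30 and 32 lay between -1.33 and 0.12.

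The first question was which miRNAs changed in hyperoxia between these ages. By the fit, more miRNAs were called lower than higher. Of 297 miRNAs tested, 42 were higher at P14.5 (14.1%) and 124 were lower (41.8%) in limma at an adjusted p of 0.05, and 130 of these 166 changed at least 2-fold (40 higher and 90 lower). The median change of all 297 was -0.63, and the 8 arrays did not overlap between the ages for 177 miRNAs (59.6%). Among the 135 miRNAs detected on all 8 arrays, the median change was -0.28, with 29 higher and 41 lower. Of the 124 lower, 28 were detected on no P14.5 array and were tested because they were detected at P2.5. With values below an array's detection limit set to that limit, 6 of these 28 still fell. Of the 42 higher, 3 were detected on no P2.5 array. The 41.8% set beside the lists below includes all 28. Without arrays 29 and 31, 69 of 317 miRNAs were higher (21.8%) and 159 lower (50.2%), and 161 of the 166 calls were made again in the same direction. In that fit detection on the remaining P14.5 arrays was enough for a miRNA to be tested. The split depended on the treatment of low signals and on scaling. With background correction by normexp, 33 were higher and 10 lower and the median change turned to 0.54. In the deposited series values 117 miRNAs passed, 40 higher and 77 lower. With no scaling 27 were higher and 189 lower, around a median of -1.80, and with scaling on all probes the median was -1.24, so changes are read against the median of the same setting.

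**Figure D2:**
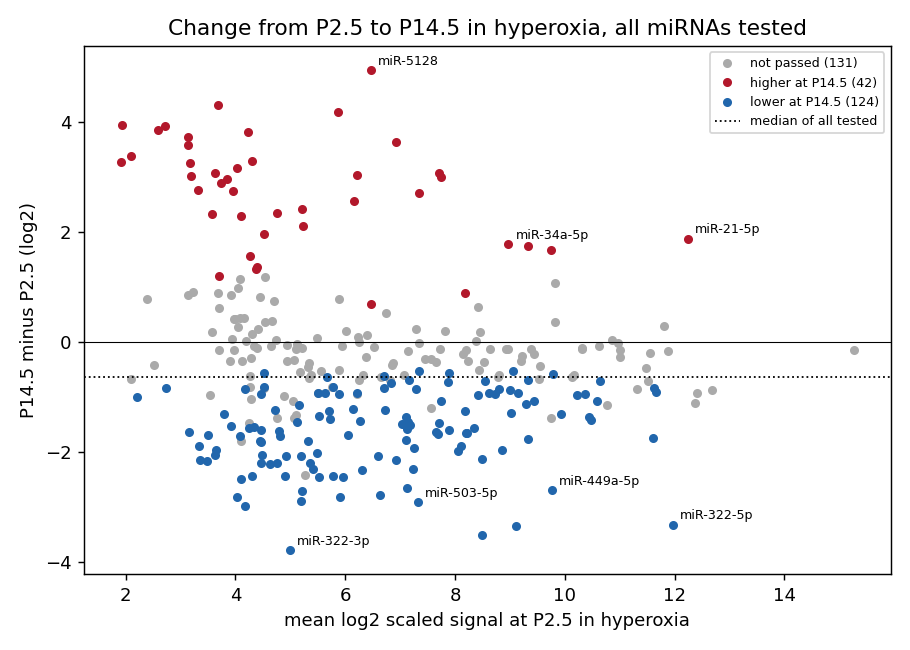
Change from P2.5 to P14.5 in hyperoxia (log2, vertical) against the mean log2 scaled signal at P2.5 (horizontal) for 297 miRNAs, with red and blue points past an adjusted p of 0.05. Calls were 42 higher and 124 lower, around a median of -0.63 (dotted line). miR-34a-5p and miR-21-5p are labelled, at 1.78 and 1.87.

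The miR-34/miR-449 family split by member. miR-34a-5p was 8.90, 9.00, 9.03 and 8.96 on the P2.5 arrays and 10.41, 10.89, 10.89 and 10.80 on the P14.5 arrays. All P14.5 arrays lay above all P2.5 arrays, a change of 1.78 (SE 0.18, 3.43-fold, limma adjusted p 0.000162, exact two-sided permutation p 0.0286, the smallest that 4 against 4 arrays can give). Array 29 was the lowest of the P14.5 arrays, and without arrays 29 and 31 the change was 1.87. miR-449a-5p was 9.71, 10.02, 9.78 and 9.55 at P2.5 and 7.18, 7.46, 6.48 and 7.13 at P14.5. It fell with no overlap, by a change of -2.70 (SE 0.24, 6.5-fold lower, limma adjusted p 9.38e-05). The other detected members gave values that did not pass, -0.14 for miR-34b-5p (limma adjusted p 0.601) and -0.22 for miR-34c-5p (0.338). Of 10 names of the family on the array, 4 were tested, 1 was higher and 1 lower, against 14.1% and 41.8% of all miRNAs. With no scaling the change of miR-34a-5p was 0.56 and did not pass (limma adjusted p 0.399), while the median of all miRNAs in that setting was -1.80.

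Of the inflammation-linked miRNAs, those induced in injured or immune-activated tissue, 2 were higher and 1 lower among 3 tested, against 14.1% and 41.8% of all miRNAs. Without arrays 29 and 31 miR-155-5p, induced in activated immune cells, was tested as well, with a fitted change of 2.17. It was not detected on all P2.5 arrays and entered through detection at P14.5 alone, so its rise is not counted as support. The other 3 kept their calls and directions in that fit. miR-21-5p was 12.27, 12.17, 12.16 and 12.34 at P2.5 and 14.27, 13.76, 13.77 and 14.64 at P14.5. Every P14.5 array was higher, a change of 1.87 (SE 0.24, 3.66-fold, limma adjusted p 0.000412). It no longer passed with scaling on all probes (1.24, limma adjusted p 0.094) or no scaling (0.66, 0.338). miR-146a-5p, a brake on Toll-like receptor signalling, fell from 7.60, 7.73, 7.80 and 7.69 to 6.38, 6.13, 5.97 and 6.43. The ages did not overlap, with a change of -1.48 (SE 0.18, limma adjusted p 0.000362). miR-146b-5p, which has the same seed, rose by 1.35 (limma adjusted p 0.0375), with array 31 at 4.25 below the P2.5 values of 4.32 to 4.45 and the other P14.5 arrays at 5.98 to 6.70, and the call was lost in 7 of 8 fits that left out 1 array. miR-22-3p and miR-222-3p, named after their values were seen, rose by 1.67 (limma adjusted p 0.00147) and 1.57 (0.0127). On array 31 they read 12.23 and 7.17, above 11.10 to 11.19 and 5.18 to 5.71 on the other P14.5 arrays.

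Members of the miR-322/miR-503 cluster on the X chromosome were lower. Of 13 names on the array, 8 were tested, 7 were lower and 0 higher, against 41.8% and 14.1% of all miRNAs. The median change was -2.38, against -0.63 for all miRNAs. Of these 7, 1 (miR-322-5p) was detected on all 8 arrays and 6 on 1 to 3 of the P14.5 arrays. With values below an array's limit set to that limit, the list median was -1.03, and without arrays 29 and 31 all 8 were lower (median -2.20, and -1.76 to the limits). With normexp the median of the list was 0.07, against 0.54 for all miRNAs in that setting, and miR-322-5p remained at -2.88. The members with 1 RefSeq location lay within 53048008 to 53054327 of chromosome X. miR-322-5p was 11.91, 11.99, 12.00 and 11.99 at P2.5 and 9.34, 8.59, 7.55 and 9.08 at P14.5. The groups did not overlap, with a change of -3.33 (SE 0.37, 10.1-fold lower, limma adjusted p 0.000252). miR-503-5p, from the same transcript, was 7.40, 7.35, 7.18 and 7.37 at P2.5 and 4.59, 4.46, 4.03 and 4.54 at P14.5. Its change was -2.92 (SE 0.19, limma adjusted p 1.45e-05). Detection held on 2 of the 4 P14.5 arrays, and the change to the limits was -2.06. miR-322-3p, the other arm of miR-322, lay between 4.77 and 5.12 at P2.5 and at the floor of 1.20 on all P14.5 arrays, 1 of which called it detected. Set to the limits its fall was -0.13, and -1.30 without arrays 29 and 31, whose limits of 5.33 and 6.71 were the highest. The remaining members, miR-450a-5p, miR-450b-3p, miR-542-3p and miR-542-5p, passed with fitted changes of -2.32, -2.45, -2.15 and -1.69, on 2, 2, 3 and 3 detected P14.5 arrays, and their changes to the limits were -1.61, -0.67, -1.29 and -0.77. miR-351-5p gave -1.81 (limma adjusted p 0.0517), or -2.40 without arrays 29 and 31 (0.000298), but all its P14.5 values lay below the limits.

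In the miR-15/16 family as a whole, which includes miR-322-5p and miR-503-5p, 4 of 7 members were lower and 0 higher, against 41.8% lower among all miRNAs, and 5 of 7 were lower without arrays 29 and 31. miR-15b-5p and miR-16-5p fell by 1.07 and 0.95 (limma adjusted p 0.0377 and 0.0334), and these calls were lost in 5 and 6 of the 8 fits that left out 1 array. miR-15a-5p, miR-195-5p and miR-497-5p gave -0.61, -0.63 and -0.14 and did not pass. miR-15a-5p passed without arrays 29 and 31 (-0.48, limma adjusted p 0.0291). miR-497-5p, encoded beside miR-195 on chromosome 11, was 8.82, 8.95, 9.01 and 8.94 at P2.5 and 8.88, 8.61, 8.67 and 9.03 at P14.5, and the groups overlapped.

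Most tested members of the Dlk1-Dio3 region were lower. Of 103 names on the array, 38 were tested, 34 were lower and 2 higher, against 41.8% and 14.1% of all miRNAs. The median change was -1.89. Of the 34, 15 were detected on none of the P14.5 arrays and 13 on 1 to 3, and these were tested because they were detected at P2.5. Of the 7 detected on all 8 arrays, 6 were lower. With values below an array's limit set to that limit, the list median was -0.34 and 23 of 38 lay below 0, and without arrays 29 and 31 it was -1.46, with 32 of 38 below 0. The 36 with 1 RefSeq location lay within 109585818 to 109747914 of chromosome 12. Without arrays 29 and 31 the same counts of 34 and 2 were obtained (median -1.96). With normexp the list median turned to 0.46, against 0.54 for all miRNAs. miR-136-5p was 8.50, 8.44, 8.48 and 8.51 at P2.5 and 6.31, 6.21, 6.69 and 6.22 at P14.5. Array 31 was the highest at P14.5 and still far below P2.5, with a change of -2.13 (SE 0.18, 4.36-fold lower, limma adjusted p 9.38e-05). miR-127-3p was 8.90, 8.70, 8.87 and 8.93 at P2.5 and 6.89, 6.5, 7.55 and 6.60 at P14.5. The change was -1.96 (SE 0.25, limma adjusted p 0.000437). miR-376a-3p, miR-434-3p and miR-379-5p fell by 1.99, 1.65 and 1.56 and were also detected on all 8 arrays. miR-379-3p, miR-136-3p and miR-434-5p had the lowest fitted changes of the list (-2.98, -2.89 and -2.82), with 0, 0 and 2 of 4 P14.5 arrays detected. Counted to the detection limits, miR-411-3p, miR-495-3p, miR-136-3p and miR-487b-3p fell at least 1.47-fold, 1.27-fold, 1.26-fold and 1.05-fold. miR-335-3p, on chromosome 6, fell at least 1.27-fold, a call lost in 7 of 8 fits that left out 1 array, and its other arm miR-335-5p, named after its values were seen, had a change of -3.36 (limma adjusted p 0.000955). The members higher at P14.5 were miR-494-3p (2.99) and miR-3072-5p (3.25), both brightest on array 31. Over all tested miRNAs with 1 RefSeq location on chromosome 12, 36 of 42 were lower. The 36 members of the region with 1 location were among these 42, so this count largely repeats that of the list.

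The miR-17 to 92 clusters carry the growth-promoting miR-17, miR-18, miR-19 and miR-92 families. They were lower in 12 of 12 tested members, against 41.8% of all miRNAs, with a median of -1.28 and a range of -2.14 to -0.54. Without arrays 29 and 31, 11 of 12 were lower, against 50.2%. Of the 12, 7 were detected on all 8 arrays, and all 7 of these were lower. The median to the limits was -0.90. miR-19a-3p was 8.02, 8.34, 8.24 and 8.16 at P2.5 and 6.29, 6.37, 6.45 and 6.98 at P14.5. The ages did not overlap, with a change of -1.67 (SE 0.21, limma adjusted p 0.000401). miR-17-5p and miR-20a-3p had changes of -1.89 and -2.14 and were detected on 0 of 4 P14.5 arrays, and their P2.5 levels lay below the mean P14.5 limit, so that a fall of these 2 was not measured. miR-301a-3p, of the miR-130 seed family, fell by 1.77 (limma adjusted p 0.00183), and the 3 with its seed AGUGCAA in RefSeq were lower. By seed, the 5 with AAAGUGC (the miR-17 seed) and the 3 with AUUGCAC (the miR-92 seed) were all lower by the fit, miR-17-5p among them, and 0 of the 9 let-7 members with GAGGUAG passed.

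The largest rises belonged mostly to miRNAs with high miRBase numbers, whose roles in lung are little described. miR-5128 was 6.81, 7.01, 6.47 and 5.55 at P2.5 and 10.75, 11.54, 13.39 and 9.92 at P14.5. It was higher on every P14.5 array and highest on array 31, with a change of 4.94 (SE 0.70, limma adjusted p 0.000736). miR-5105, miR-3960, miR-211-3p and miR-5126 rose by 4.31, 4.17, 3.80 and 3.62. miR-1895, miR-125a-3p, miR-466i-5p and miR-1224-5p rose by 3.29, 3.15, 3.07 and 3.04, and the call of miR-125a-3p was lost in 5 of 8 fits that left out 1 array. Array 31 was the highest for each of these 9 and for miR-494-3p. Without arrays 29 and 31 the 10 rose by 1.96 to 4.27. Their changes differed from those in normoxia by 0.20 (miR-125a-3p) to 2.18 (miR-494-3p). Each difference was smaller than the rise itself, so that all 10 also had a higher mean at P14.5 in normoxia. miR-1894-3p, miR-5113 and miR-5118 were detected on 0 of 4 arrays at P2.5 and on 4 of 4 at P14.5, rises of at least 7.6-fold, 3.95-fold and 3.2-fold over the P2.5 limits. Array 31 was the highest for all 3, and without arrays 29 and 31 these figures were 5.66-fold, 2.17-fold and 1.67-fold. Of the 4 P14.5 values of miR-5118, 2 lay below their arrays' limits. The median G and C content of the longest probe was 60% for the 42 that were higher, 45.0% for the 124 that were lower and 47.6% for all tested. Of the 62 miRNAs with at least 60% G and C, 23 were higher and 9 lower, with a median change of 0.39 that became -0.08 without arrays 29 and 31.

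Members of cell-type lists differed in direction. Lung epithelium and endothelium were measured in all 8 samples, through the miR-200 family and miR-126. The liver list (2 names) and the neuron list (4 names) had 0 members detected on all 4 arrays of either age. In the miR-200 family, which maintains epithelial identity, 3 of 5 were lower and 0 higher (median -0.53 against -0.63 for all). Without arrays 29 and 31, 5 of 5 were lower (median -0.60). Among all miRNAs 41.8% were lower, or 50.2% without these arrays. miR-200a-3p was 9.17, 9.36, 9.35 and 9.26 at P2.5 and 8.29, 8.23, 7.85 and 8.26 at P14.5, and its change was -1.13 (limma adjusted p 0.00113). miR-200b-3p and miR-429-3p fell by 0.97 and 0.53 (the latter lost in 4 of 8 fits that left out 1 array), and miR-141-3p and miR-200c-3p gave -0.13 and -0.23, or -0.48 and -0.42 without arrays 29 and 31 (limma adjusted p 0.0222 and 0.049). miR-126-5p, of endothelium, was 6.94, 7.19, 7.15 and 7.13 at P2.5 and 5.43, 5.81, 3.95 and 6.09 at P14.5. It fell by 1.79 (limma adjusted p 0.00781), and its change was -1.16 without arrays 29 and 31 (0.000603). Detection held on 3 of 4 P14.5 arrays, and the array 31 value lay below that array's limit of 6.71. miR-126-3p gave -0.88 (limma adjusted p 0.0517) with array 31 lowest at 10.78, and passed without arrays 29 and 31 (-0.56, 0.0152).

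Of the smooth muscle and mesenchyme list 3 of 7 were lower and 0 higher, a share close to the 41.8% of all miRNAs, and 4 of 7 were lower without arrays 29 and 31. miR-143-3p, miR-199a-5p and miR-199b-5p fell by 0.70, 0.59 and 0.71, close to the median of all miRNAs, and each call was lost in 2, 6 and 5 of the 8 fits that left out 1 array. miR-145-5p, miR-199a-3p, miR-214-3p and miR-214-5p gave -0.51, -0.71, -0.37 and -0.42 and did not pass. miR-145-5p passed without arrays 29 and 31, at -1.04 (limma adjusted p 0.00133). The muscle and heart list fell in 3 of 3 tested, against 41.8% lower among all miRNAs, with large spread. miR-133a-3p, of striated muscle, was 7.71, 8.11, 5.79 and 7.44 at P2.5 and 6.38, 5.17, 5.40 and 4.35 at P14.5, and the groups overlapped. The changes were -3.51 for miR-1a-3p, -1.94 for miR-133a-3p and -1.89 for miR-133b-3p, and each call was lost in 5, 4 and 6 of the 8 fits, while all 3 passed without arrays 29 and 31. Array 7 was low within P2.5 for all 3, at 6.93, 5.79 and 6.44. Of the erythroid list 2 of 4 were lower, against 41.8% of all miRNAs, and 1 of 4 without arrays 29 and 31, against 50.2%. miR-451 was 11.40, 10.69, 11.81 and 12.51 at P2.5 and 9.96, 10.03, 8.70 and 10.74 at P14.5. Its change was -1.75 (limma adjusted p 0.0182), it overlapped between the ages and it did not pass without arrays 29 and 31 (-1.22, 0.0636). miR-144-3p fell by 1.64, and miR-144-5p and miR-3107-5p (its probes are shared with miR-486) gave -1.48 and 0.13.

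Among immune cell miRNAs 1 of 4 was lower, against 41.8% of all miRNAs. Without arrays 29 and 31, 1 of 5 was lower and 1 higher, miR-155-5p, which entered the test through P14.5 alone, as given above. miR-150-5p, of mature lymphocytes, was 5.23, 5.44, 5.45 and 5.33 at P2.5 and 3.12, 2.80, 3.54 and 3.18 at P14.5, a change of -2.20 (SE 0.20, limma adjusted p 9.38e-05). All 4 P14.5 values lay below their arrays' limits, although 2 arrays called it detected, and the change to the limits was -0.50, or -1.67 without arrays 29 and 31. miR-142-3p, miR-142-5p and miR-223-3p, of blood and myeloid cells, gave 0.17, -0.07 and -0.13. miR-210-3p, which hypoxia induces, was 6.65, 6.5, 6.57 and 6.64 at P2.5 and 4.73, 4.71, 4.26 and 4.35 at P14.5. It fell by 2.07 (SE 0.18, limma adjusted p 9.38e-05), or -1.31 to the detection limits. Its change in normoxia was -1.50 (limma adjusted p 0.000112), and the difference between the exposures did not pass (-0.58, limma adjusted p 0.118). miR-205-5p and miR-203-3p, of squamous and basal epithelium, gave -2.43 and -1.32 and did not pass, with array 8 high within P2.5 (7.74 and 6.42) and array 29 high within P14.5 (5.94 and 6.46). miR-205-5p passed without arrays 29 and 31, at -3.95 (limma adjusted p 0.0108), or -1.57 to the limits.

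The let-7 family, which rises as tissues mature, had 0 of 9 members past the threshold, against 14.1% higher and 41.8% lower among all miRNAs. Its median change was -0.86, and array 31 was the lowest P14.5 array for every member. let-7a-5p was 12.29, 12.43, 12.46 and 12.49 at P2.5 and 12.37, 11.95, 9.37 and 12.25 at P14.5. Its change was -0.93 and -0.32 without arrays 29 and 31. In that fit 3 of 9 members were lower (let-7f-5p, let-7g-5p and miR-98-5p), against 50.2% of all miRNAs, and the median was -0.27. The values on all arrays were -0.02 for let-7b-5p, -0.47 for let-7c-5p, -0.86 for let-7d-5p, -0.64 for let-7e-5p, -1.11 for let-7f-5p, -1.16 for let-7g-5p, -0.21 for let-7i-5p and -1.20 for miR-98-5p.

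The miR-29 family, which targets collagens and other matrix genes, rose in 2 of 3 members, with or without arrays 29 and 31. Among all miRNAs 14.1% were higher, or 21.8% without these arrays. miR-29a-3p was 7.95, 8.37, 8.39 and 8.04 at P2.5 and 9.21, 8.95, 8.60 and 9.53 at P14.5. All P14.5 arrays were higher, by 0.89 (limma adjusted p 0.0139). miR-29c-3p rose by 0.69 (limma adjusted p 0.0355, lost in 7 of 8 fits that left out 1 array) and miR-29b-3p gave 0.23. With no scaling the values of miR-29a-3p and miR-29c-3p were -0.32 and -0.52, above that setting's median of -1.80. In the miR-30 family 3 of 5 were lower and 0 higher, against 41.8% and 14.1% of all miRNAs. miR-30c-5p was 10.42, 10.61, 10.41 and 10.49 at P2.5 and 9.75, 8.70, 8.33 and 9.44 at P14.5, a change of -1.43 (limma adjusted p 0.00507). miR-30b-5p and miR-30e-5p fell by 1.31 and 0.87. miR-30a-5p and miR-30d-5p gave -0.28 and 0.36 on all arrays, and -0.67 and -0.41 without arrays 29 and 31, where all 5 members passed as lower. The miR-297, miR-466, miR-467 and miR-669 families, part of which lie in an intron of Sfmbt2, split by direction. Of 13 tested, 2 were higher and 4 lower (median 0.41), against 14.1% and 41.8% of all miRNAs. Without arrays 29 and 31, 2 were higher and 5 lower (median -0.19). All 4 lower ones were detected on none of the P14.5 arrays, and with all arrays none of the 4 lay below 0 when counted to the limits. miR-466i-5p and miR-669n rose by 3.07 and 1.32, and miR-466b-3p, miR-467e-5p and miR-467b-5p had changes of -2.49, -1.96 and -1.80 with 0 of 4 P14.5 arrays detected. The call of miR-669n was lost in 6 of 8 fits that left out 1 array, and near-identical members of these families may share signal.

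**Figure D3:**
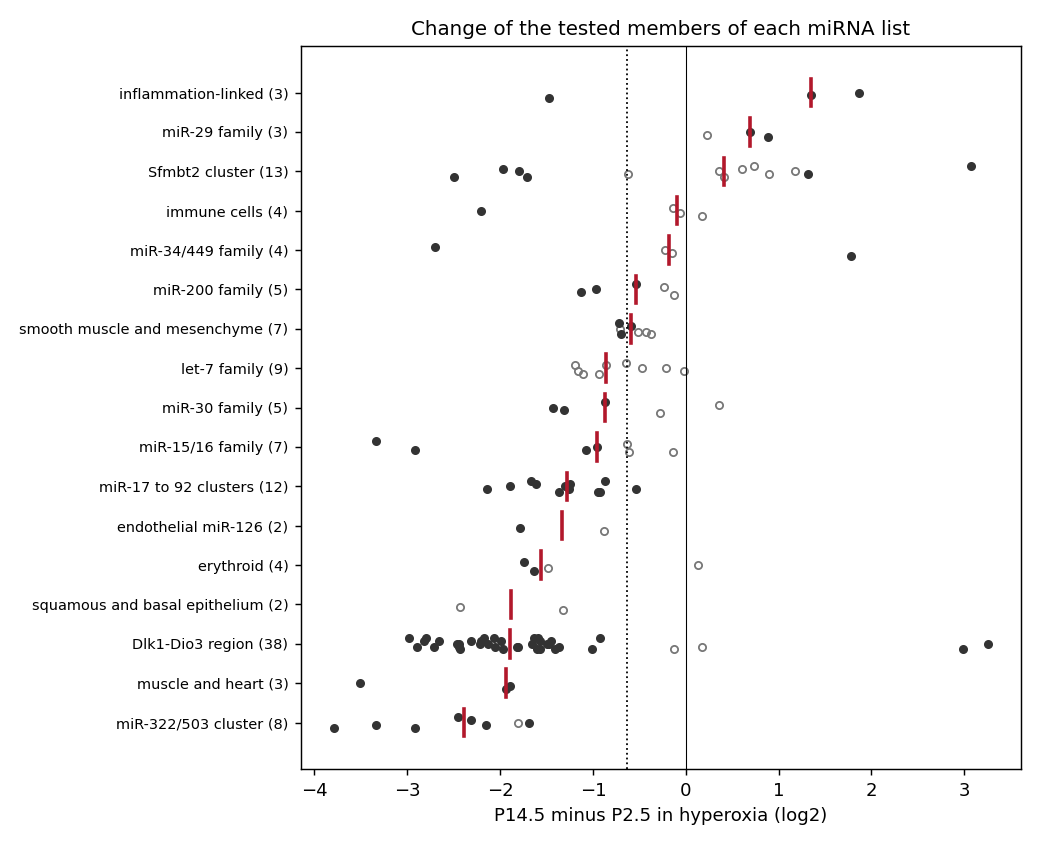
Change from P2.5 to P14.5 in hyperoxia (log2) of every tested member of each list, with the number tested in brackets, filled points past an adjusted p of 0.05, open points not, and red bars at the list median. The dotted line is the median of all 297 miRNAs (-0.63), and the median of the miR-322/miR-503 cluster was -2.38. Without arrays 29 and 31 it was -2.20, and the muscle and heart list was at -2.62.

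The second question was whether the change with age differed from that of normoxia pups of the same ages. The interaction, fitted over 16 arrays, passed for 71 of 303 miRNAs (23.4%), with the hyperoxia change more positive for 21 and more negative for 50. The count was 129 without array 31 and 120 without arrays 29 and 31, and it was 40, 47 and 42 without normoxia arrays 1 and 4 and hyperoxia array 6. It was also 4 with scaling on all probes and 0 with no scaling, so the number depended on the setting. In normoxia alone 217 of 297 miRNAs passed, 77 higher and 140 lower, with a median SE of 0.11 against 0.33 in hyperoxia. Without array 28, 248 passed there, 109 higher and 139 lower.

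miR-34a-5p and miR-21-5p had the smallest p-values of the interaction. In normoxia miR-34a-5p was 8.80, 8.94, 8.87 and 8.82 at P2.5 and 8.35, 8.67, 8.52 and 8.54 at P14.5. It fell there by 0.34 (limma adjusted p 0.00503) and rose in hyperoxia, and the changes differed by 2.12 (limma adjusted p 2.26e-06, SE 0.18). miR-21-5p in normoxia was 11.93, 12.04, 12.09 and 11.99 at P2.5 and 11.14, 11.38, 11.02 and 11.27 at P14.5. It fell there by 0.81 (limma adjusted p 5.85e-05), and the difference was 2.68 (SE 0.25, limma adjusted p 3.97e-06). Both differences missed the threshold with scaling on all probes (1.90 and 2.46, limma adjusted p 0.0579 for each). miR-5109, recently named, had a difference of 1.70 (limma adjusted p 0.00528) and was brightest on array 31. miR-1949 fell in normoxia by 0.83 and gave 0.09 in hyperoxia, a difference of 0.92 (limma adjusted p 0.007). miR-135b-5p fell in both exposures, by 3.99 in normoxia and 2.33 in hyperoxia, a difference of 1.66 (limma adjusted p 0.00269), but all 4 normoxia and 3 of 4 hyperoxia P14.5 values lay below the limits, so that the size of this difference was not measured.

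Other miRNAs that rose or held in normoxia did not do so in hyperoxia. In what follows miR-322-5p, miR-449a-5p, miR-126-3p, miR-126-5p, miR-30c-5p, miR-497-5p and miR-195-5p were chosen for this comparison after their values were seen. miR-100-5p rose in normoxia by 1.67 and gave -0.08 in hyperoxia, and the changes differed by -1.74 (limma adjusted p 3.35e-05, SE 0.21). Its hyperoxia arrays were 5.89, 6.09, 5.68 and 6.13 at P2.5 and 5.96, 6.04, 5.59 and 5.89 at P14.5, and the ages overlapped. miR-551b-3p rose by 1.05 in normoxia and fell by 0.75 in hyperoxia, from 6.86, 6.77, 6.81 and 6.90 to 6.15, 5.88, 6.11 and 6.22, a difference of -1.79 (limma adjusted p 3.35e-05). miR-497-5p and miR-195-5p, of the miR-15/16 family, rose by 1.21 and 1.16 in normoxia, differences of -1.35 and -1.79 (limma adjusted p 9.47e-05 and 0.00511). miR-126-3p rose by 0.51 in normoxia (difference -1.39, limma adjusted p 0.0129), and the difference of miR-126-5p was -1.97 (0.00919), or -1.28 to the limits. miR-30c-5p gave 0.03 in normoxia (difference -1.45, limma adjusted p 0.00919). miR-150-5p and miR-146a-5p gave -0.20 and -0.06 in normoxia, differences of -2.0 and -1.42 (limma adjusted p 1.58e-05 and 3.35e-05). With the hyperoxia P14.5 values set to their limits the difference of miR-150-5p was -0.30, or -1.46 without arrays 29 and 31, and that of miR-146a-5p was -1.23. With normexp the difference of miR-150-5p turned to 0.36.

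The miR-322/miR-503 cluster was lower at P14.5 in both exposures. Its median change was -0.68 in normoxia, where 8 of 8 were lower. The interaction was more negative in hyperoxia for 7 of 8, against 50 of 303 miRNAs. Of the 7, only miR-322-5p was detected on all 8 hyperoxia arrays. For miR-322-3p all 4 hyperoxia and 3 of 4 normoxia P14.5 values lay below the limits, so that the size of its difference was not measured. miR-450b-3p was detected on 2 of 4 hyperoxia P14.5 arrays. Its change in normoxia was -0.70, close to its hyperoxia change to the limits given above. miR-322-5p in normoxia was 12.14, 11.69, 11.76 and 12.09 at P2.5 and 10.22, 10.56, 10.32 and 10.37 at P14.5, a change of -1.55, and the difference was -1.78 (limma adjusted p 0.00775). For miR-503-5p the change was -1.28 in normoxia and the difference -1.64 (3.35e-05), or -0.78 to the limits and 0.18 with normexp, and for miR-449a-5p -1.65 and -1.05 (0.0115). Most tested members of the Dlk1-Dio3 region were lower in both exposures, with the opposite difference. In normoxia 34 of 37 tested were lower (median -2.47), against 140 of 297 miRNAs. The interaction was more positive in hyperoxia for 11 of 38, against 21 of 303 miRNAs, and more negative for 0. The median difference was 0.51. Of the 11, miR-494-3p rose in both exposures, by 2.99 in hyperoxia and 0.81 in normoxia. Among the others, miR-380-3p, miR-409-3p, miR-411-3p and miR-433-3p were detected on 0 of 4 hyperoxia P14.5 arrays. All 4 normoxia P14.5 values of miR-411-3p also lay below the limits, so that the size of its difference was not measured. In hyperoxia 7 of the 38 were detected on all 8 arrays, and the detection limits of arrays 29 and 31 were 5.33 and 6.71 against 3.13 to 4.81 on the normoxia P14.5 arrays. The miR-17 to 92 clusters were lower in 12 of 12 in normoxia as well by the fit (median -0.87), and 0 of 12 passed the interaction. All 4 normoxia P14.5 values of miR-17-5p and miR-20a-3p lay below the limits, so that the size of their falls there was not measured.

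**Figure D4:**
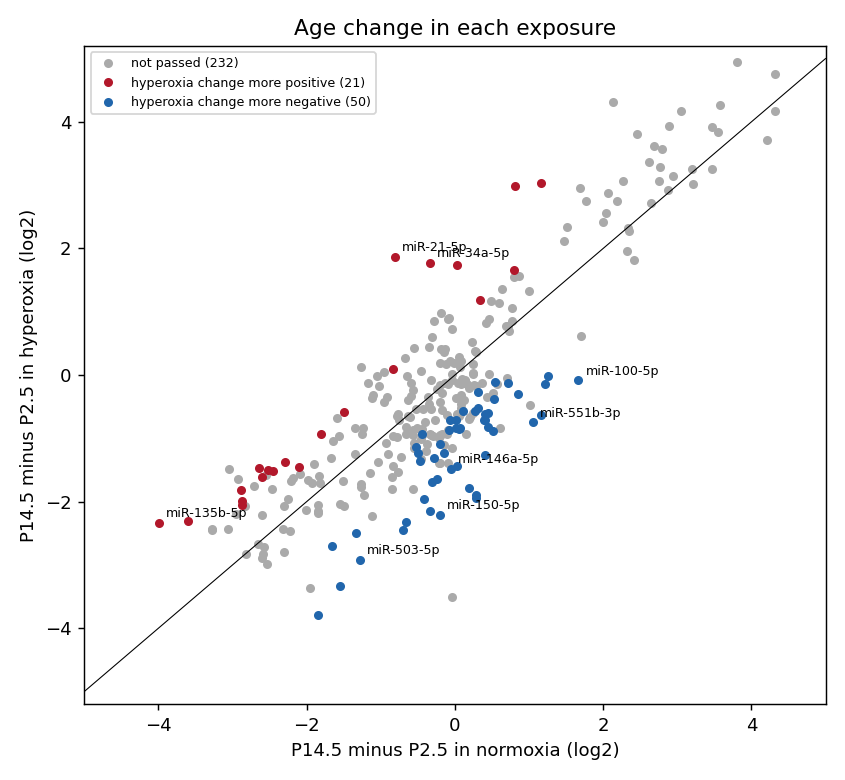
Change from P2.5 to P14.5 in hyperoxia (vertical) against the change in normoxia (horizontal), both log2, for 303 miRNAs, with colours for those past an adjusted p of 0.05 in the interaction and a line where both changes are equal. miR-34a-5p and miR-21-5p lay above the line, at 1.78 and 1.87 against -0.34 and -0.81, and miR-100-5p and miR-551b-3p below it.

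The hyperoxia samples of P3.5 and P5.5 place these changes in time, as values without a test. No slide or scan day held hyperoxia arrays both of P2.5 or P3.5 and of P5.5 or P14.5. Between P3.5 and P5.5 slide, scan day and age therefore cannot be told apart. miR-34a-5p was 9.33 ± 0.16 (SD, n = 4) at P3.5 and 10.53 ± 0.27 at P5.5, against a mean of 8.97 at P2.5 and 10.75 at P14.5, so most of its rise was present by P5.5. miR-21-5p was 12.31 ± 0.09 at P3.5 and 12.57 ± 0.33 at P5.5, and most of its rise lay after P5.5. miR-322-5p was 11.59 ± 0.08 and 10.92 ± 0.13, and miR-503-5p 6.75 ± 0.15 and 6.39 ± 0.18, at the same ages, lower at each later age. miR-449a-5p was 9.77 ± 0.21 and 9.29 ± 0.28, and miR-30c-5p 10.49 ± 0.05 and 10.22 ± 0.18, within 1 unit of their P2.5 levels. miR-127-3p was 8.30 ± 0.08 and 7.67 ± 0.10, and miR-136-5p 8.05 ± 0.04 and 7.36 ± 0.19, stepping down with age. miR-146a-5p was 7.73 ± 0.08 and 7.19 ± 0.05, and miR-5128 5.5 ± 0.77 and 6.60 ± 1.45, so that both also moved mainly after P5.5. miR-150-5p was 5.44 ± 0.08 and 4.69 ± 0.15, and its P14.5 values, set to the limits, averaged 4.86, so that a fall after P5.5 was not measured.

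**Figure D5:**
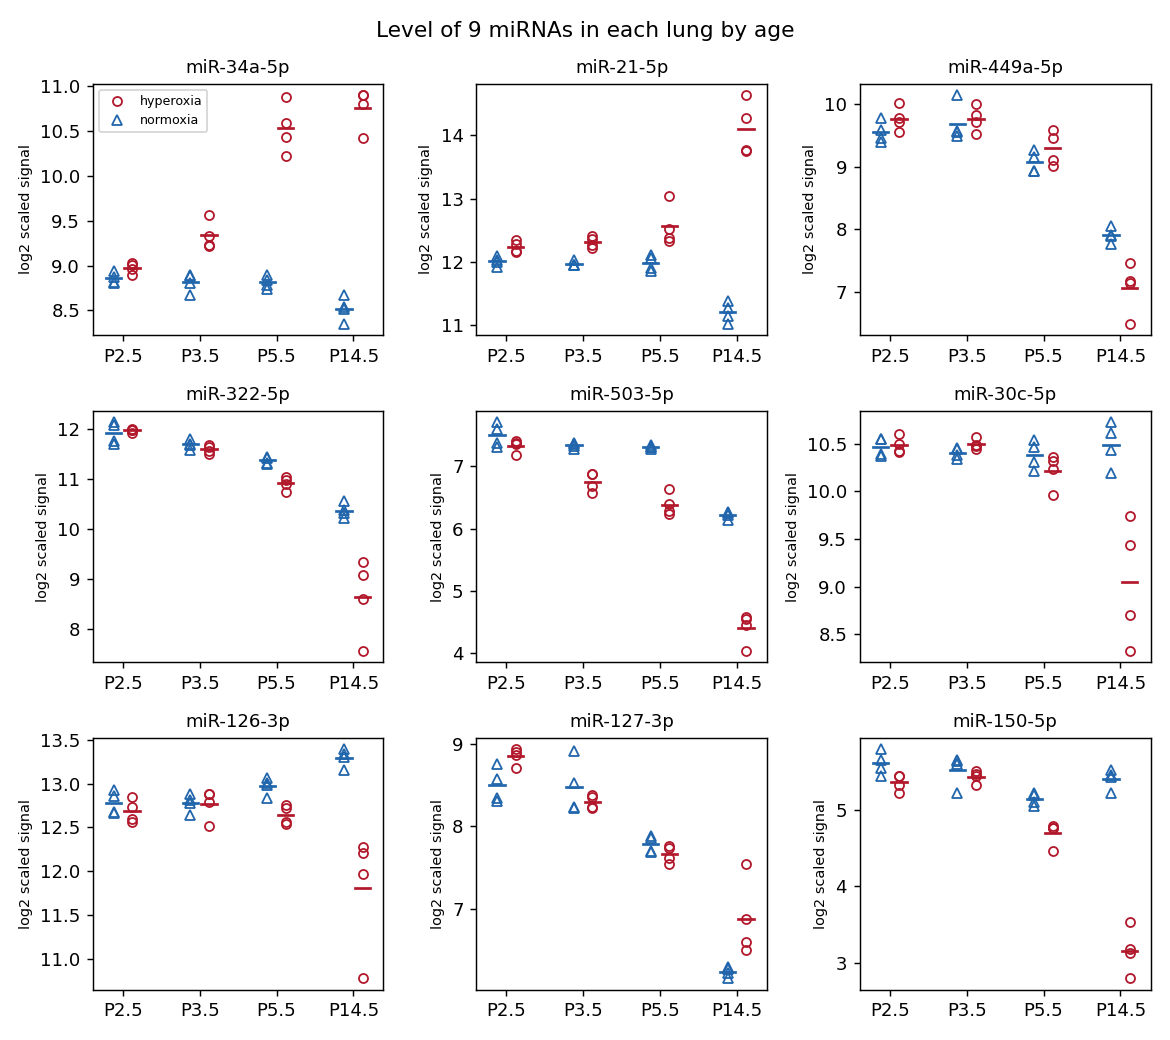
Log2 scaled signal of 9 miRNAs, chosen after their values were seen, in each of 4 lungs per age (points) with the mean (bars), for hyperoxia (red circles) and normoxia (blue triangles). miR-34a-5p in hyperoxia was above normoxia at P5.5 and P14.5, and miR-322-5p and miR-503-5p were lowest in hyperoxia at P14.5.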

How the data were processed

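Total RNA from whole lung was labelled with Cy3 and hybridised to 1-colour Agilent mouse miRNA arrays, and scans were extracted with Agilent Feature Extraction 10.7.3.1, named in the submitters' processing notes. The deposited scanner files of the authors give spot intensity on a linear scale, already background-subtracted as the processed signal, together with flags (a score of 0 or 1 per spot) for signals well above background and for outliers. The series values deposited by the authors are log2 values of the same arrays under older miRNA names, and their normalization is not given in the sources used here. Of these rows, 907 were paired with miRNAs of the scanner files, and they served as an alternative. Groups were taken from the labels of exposure and age, and 0 columns were left unassigned.

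Processed signals of a probe were averaged over spots without outlier flags, scaled so that each array's 75th percentile over the 205 probes well above background on all 32 arrays (7.44% of 2754) equalled 1166, averaged over the probes of a miRNA, floored at 2.30 and put on the log2 scale. A miRNA counted as detected on an array when more than 0.5 of the spots of any of its probes were well above background, and was tested when all 4 arrays of either age had it detected. The detection limit of an array was the lowest signal among probes well above background, and "at least" folds were counted against it. The number of arrays limits the precision.

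Tests were lmFit and eBayes of limma 3.58.1 in R 4.3.3 with Benjamini-Hochberg adjustment over all miRNAs tested and a threshold of 0.05, on the 8 arrays of 1 exposure, or on 16 arrays for the interaction. Further tools were matplotlib 3.10.9, pandas 2.3.3, numpy 2.4.6, Python 3.11.15 and data.table (version 1.17.8), and the fits were tested on simulated data. The miRNAs named were the 10 largest rises and falls among called miRNAs detected on all 8 arrays without overlap, the 5 largest lower limits in each direction, the 5 smallest adjusted p of the interaction in each direction, detected members of lists of 10 or fewer, the 3 largest changes in each direction of longer lists, and the miR-34 family with miR-21. The members and lists were chosen with earlier results of these data known. Lists were described by counts and medians without a test. Alternatives covered scaling, quantile normalization, normexp, probe summary, floor, detection, array weights, a random slide block, wider fits, the methods' t-test and left-out arrays.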

Additional observations from a re-analysis of the deposited data

Results flagged for a closer look

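Of 204 groups of 4 arrays over the named miRNAs, 18 held an array far from the other 3 by Dixon's criterion, and chance flags about 1 in 20 groups. The 204 include groups of equal values at the floor, such as miR-322-3p at P14.5, which could not be checked. Array 31 was the low one at P14.5 for let-7a-5p (9.37), let-7d-5p (8.47), let-7e-5p (7.84), let-7f-5p (9.02), let-7g-5p (7.57), let-7i-5p (9.98), miR-200a-3p (7.85) and miR-98-5p (4.34), and the high one for miR-22-3p (12.23). Its labelling spike-in was 2.13, the lowest of the 32 arrays. Array 29 was high for miR-143-3p (8.91). At P2.5, array 5 was low for let-7d-5p (11.17), let-7g-5p (10.60) and miR-322-5p (11.91), array 6 was high for miR-199a-5p (9.91), array 7 was low for miR-133b-3p (6.44) and miR-20a-3p (2.96), and array 8 was high for miR-203-3p (6.42) and miR-205-5p (7.74).

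The change with age differed between hyperoxia and normoxia by the interaction in limma for the following miRNAs, as log2 differences. It was more positive in hyperoxia for miR-34a-5p (2.12), miR-21-5p (2.68), miR-135b-5p (1.66), miR-5109 (1.70) and miR-1949 (0.92). It was more negative for miR-150-5p (-2.0), miR-100-5p (-1.74), miR-146a-5p (-1.42), miR-503-5p (-1.64), miR-551b-3p (-1.79), miR-322-5p (-1.78), miR-449a-5p (-1.05), miR-126-3p (-1.39), miR-126-5p (-1.97), miR-30c-5p (-1.45), miR-497-5p (-1.35) and miR-195-5p (-1.79). For miR-150-5p and miR-503-5p they were -0.30 and -0.78 with hyperoxia P14.5 values set to the detection limits, and for miR-135b-5p the normoxia P14.5 values lay below the limits. As fitted, these differences held their sign and passed in each of the 16 fits that left out 1 array.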

How the results depend on the processing

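With all arrays and the main setting, 166 miRNAs passed in hyperoxia and 71 in the difference from normoxia. The hyperoxia count was 43 with normexp, 71 with detection required on every array (fewer miRNAs tested) and 107 with the methods' t-test after Benjamini-Hochberg adjustment. The difference from normoxia passed for 4 miRNAs with scaling on all probes, 27 with quantile normalization, 10 with normexp, 24 with total gene signal, 21 with the deposited series values, 43 with no detection filter and 43 with detection on every array, 110 with array weights, 120 without arrays 29 and 31, 109 without arrays 28, 29 and 31, and 0 with no scaling, and leaving out 1 array gave 40 to 129. The normoxia count of 217 was 84 with normexp, 138 with detection on every array and 124 with no scaling. miR-34a-5p in hyperoxia was 0.56 with no scaling, where it did not pass, and passed in each other alternative run. No scaling, and leaving out normoxia array 28 alone, were chosen after seeing the data. The cause of these shifts was not tested. Arrays 29 and 31 had the highest detection limits, so falls of dim miRNAs are bounded there. No paired analysis was possible because no replicate number was shared between groups.

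With scaling on all probes, the sign turned to -0.55 for miR-1949, -0.50 for miR-3107-5p, -0.46 for miR-142-3p, -0.41 for miR-29b-3p, -0.27 for miR-30d-5p and -0.23 for the median of the list Sfmbt2 cluster. With quantile normalization, the sign turned to -0.080 for miR-3107-5p, 0.048 for miR-223-3p, 0.095 for let-7b-5p, 0.069 for miR-497-5p, 0.00089 for miR-200c-3p, 0.031 for miR-34b-5p, 0.0051 for miR-34c-5p and 0.018 for the median of the list miR-34/miR-449 family. With normexp background correction, the sign turned to 0.38 for miR-411-3p, 0.44 for miR-495-3p, 0.48 for miR-335-3p, 0.46 for miR-136-3p, 0.55 for miR-487b-3p, 0.060 for miR-135b-5p, 0.42 for miR-150-5p, 0.63 for miR-100-5p, 0.19 for miR-551b-3p, 0.68 for miR-379-3p, 0.23 for miR-434-5p, 0.72 for miR-466b-3p, 0.81 for miR-467e-5p, 0.70 for miR-467b-5p, 0.72 for miR-144-5p, 0.82 for miR-142-5p, 0.11 for miR-223-3p, 0.035 for miR-497-5p, 0.80 for miR-20a-3p, 0.82 for miR-17-5p, 0.46 for miR-322-3p, 0.20 for miR-34b-5p, 0.098 for miR-34c-5p, 0.47 for miR-145-5p, 0.24 for miR-214-3p, 0.95 for miR-214-5p, 0.60 for miR-203-3p, 0.29 for miR-205-5p, 0.46 for the median of the list Dlk1-Dio3 region, 0.19 for the median of the list erythroid, 0.40 for the median of the list immune cells, 0.070 for the median of the list miR-322/miR-503 cluster, 0.15 for the median of the list miR-34/miR-449 family, 0.36 for miR-150-5p (difference from normoxia) and 0.18 for miR-503-5p (difference from normoxia). With the brightest probe, the sign turned to 0.092 for let-7b-5p. With the total gene signal, the sign turned to -0.28 for miR-3107-5p, 0.11 for let-7b-5p and -0.39 for the median of the list Sfmbt2 cluster. With the deposited series values, the sign turned to -1.11 for miR-3107-5p, 0.071 for miR-223-3p, 0.20 for let-7b-5p, 0.11 for miR-497-5p, 0.13 for miR-141-3p, 0.14 for miR-34b-5p, 0.18 for miR-34c-5p, -1.08 for the median of the list Sfmbt2 cluster and 0.16 for the median of the list miR-34/miR-449 family. With detection required on every array, the sign turned to 0.020 for the median of the list immune cells. With array weights, the sign turned to -0.54 for miR-3107-5p, 0.20 for miR-142-5p, 0.22 for miR-223-3p, 0.33 for let-7b-5p, 0.12 for let-7c-5p, 0.25 for let-7i-5p, -0.058 for miR-30d-5p and 0.21 for the median of the list immune cells. With arrays 29 and 31 left out, the sign turned to 0.016 for miR-100-5p, -0.21 for miR-3107-5p, 0.27 for miR-142-5p, 0.22 for miR-223-3p, 0.14 for let-7b-5p, 0.19 for let-7i-5p, -0.41 for miR-30d-5p, 0.15 for miR-34b-5p, 0.11 for miR-214-3p, -0.19 for the median of the list Sfmbt2 cluster and 0.24 for the median of the list immune cells. With no scaling, the sign turned to -1.12 for miR-1949, -1.08 for miR-3107-5p, -1.04 for miR-142-3p, -0.32 for miR-29a-3p, -0.98 for miR-29b-3p, -0.52 for miR-29c-3p, -0.85 for miR-30d-5p, -0.80 for the median of the list Sfmbt2 cluster, -0.52 for the median of the list miR-29 family and -0.039 for miR-1949 (difference from normoxia). Leaving out 1 array in turn gave a range that crossed 0, or turned the sign, for let-7b-5p (-0.24 to 0.30), let-7c-5p (-0.76 to 0.12), let-7i-5p (-0.40 to 0.25), the median of the list Sfmbt2 cluster (-0.086 to 0.67), the median of the list immune cells (-0.35 to 0.19), miR-100-5p (-0.17 to 0.016), miR-141-3p (-0.41 to 0.038), miR-142-3p (-0.0037 to 0.42), miR-142-5p (-0.29 to 0.20), miR-223-3p (-0.42 to 0.18), miR-29b-3p (-0.087 to 0.65), miR-30d-5p (-0.18 to 0.66) and miR-3107-5p (-0.48 to 0.52). The largest adjusted p of limma over the 8 fits that left out 1 array was 0.0696 for miR-125a-3p, 0.11 for miR-335-3p, 0.106 for miR-669n, 0.0525 for miR-451, 0.0892 for miR-146b-5p, 0.0899 for miR-15b-5p, 0.0829 for miR-16-5p, 0.0845 for miR-429-3p, 0.0989 for miR-29c-3p, 0.0969 for miR-1a-3p, 0.0614 for miR-133a-3p, 0.107 for miR-133b-3p, 0.0631 for miR-143-3p, 0.12 for miR-199a-5p and 0.0959 for miR-199b-5p, and each of these calls was lost in at least 1 of those fits.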
